A study of Mus musculus with 15 samples.

Results

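Oxidative phosphorylation (OXPHOS) was described here as 103 genes of the 55573 in the liver count table. The members were taken by gene symbol: subunits of NADH dehydrogenase (Nduf, complex I), succinate dehydrogenase (Sdh, complex II), cytochrome bc1 (Uqcr, complex III), cytochrome c oxidase (Cox4 to Cox8, complex IV) and ATP synthase (Atp5, complex V), together with the protein genes of mitochondrial DNA, whose symbols start with mt-. Of these, 13 formed the mitochondrial set and 90 the nuclear set, and symbols marked as pseudogenes were left out. All 13 mitochondrial genes and 82 of the 90 nuclear genes had enough counts to be tested, among 17655 genes tested in all. The 8 nuclear members below that limit were Ndufa11b, Cox4i2, Cox6a2, Cox6b2, Cox7b2, Cox8b, Cox8c and a second entry of Atp5o.

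RNA from whole liver of 15 mice was sequenced after depletion of ribosomal RNA, with 1 library per mouse. The mice were 8 weeks old and of the strain B6N(Cg)-Esr1tm4.2Ksk/J: 3 wild type females (FWT), 3 wild type males (MWT), 5 ESR1KO females (FKO) and 4 ESR1KO males (MKO). ESR1KO mice are homozygous for a constitutive deletion of exon 3 of *Esr1*, the gene of estrogen receptor alpha. The deletion is in every tissue, and the study describes infertility and raised testosterone in both sexes, so that loss of the receptor in the liver and these systemic changes cannot be told apart. In bulk liver, fewer cells of a type and less RNA per cell cannot be told apart either. *Esr1* itself had a mean CPM (counts per gene scaled by library size to a common total) of 81.9 in FWT, 36.1 in MWT, 13.1 in FKO and 11.8 in MKO livers, and every ESR1KO liver was below every wild type liver.

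OXPHOS is the last step of aerobic energy production. Complexes I to IV pass electrons from NADH and succinate to oxygen and pump protons across the inner mitochondrial membrane, and complex V uses the proton gradient to make ATP, which in liver pays for gluconeogenesis and urea synthesis among other tasks. Complexes I, III, IV and V are mosaics of subunits from both genomes: the catalytic core is partly encoded by mitochondrial DNA, which is transcribed as long precursor RNAs from both strands, whereas most subunits and all of complex II come from single nuclear genes. All mitochondrial members except mt-Nd6 are read from the same strand of the mitochondrial genome.

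Counts of several mitochondrial genes are limited by sequence. The mouse nuclear genome holds copies of mitochondrial DNA, and the longest run of annotated copies found here lay on chromosome 1 between 24611535 and 24616197 on the minus strand (GRCm38). Over their shared length, mt-Co2 and its copy Gm28661 did not differ at any of 681 bases, mt-Co3 and Gm28437 at none of 783, mt-Atp6 and Gm10925 at none of 678, mt-Nd4l and Gm10222 at none of 294, and the first 876 bases of mt-Nd4 and Gm28439 at none. A read from such a stretch cannot be assigned to 1 of the 2 places. The gene mt-Nd3 and its copy Gm28438 differed at 1 of 345 bases (T3C, counted from 1 at the first base of the gene), and mt-Co1 and the copy Gm13340 on chromosome 2 differed at 37 of 1545 bases, an identity of 97.6%. The first bases of 3 of these pairs (mt-Co2, mt-Nd3 and mt-Co1) are shown because reads can be told apart only at bases that differ, which are in capitals (positions 1 to 90 for the first 2 pairs, 9 to 98 for the last):
mt-Co2: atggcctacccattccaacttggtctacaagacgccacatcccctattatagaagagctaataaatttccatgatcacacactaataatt
Gm28661: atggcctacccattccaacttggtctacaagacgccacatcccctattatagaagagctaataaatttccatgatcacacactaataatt
mt-Nd3: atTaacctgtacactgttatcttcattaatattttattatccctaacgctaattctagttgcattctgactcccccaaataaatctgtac
Gm28438: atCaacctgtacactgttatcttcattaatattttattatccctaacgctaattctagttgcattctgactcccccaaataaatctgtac
mt-Co1: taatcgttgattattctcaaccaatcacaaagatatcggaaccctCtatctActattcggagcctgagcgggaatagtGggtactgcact
Gm13340: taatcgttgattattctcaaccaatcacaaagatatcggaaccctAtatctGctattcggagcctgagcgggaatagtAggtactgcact

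The share of 50-base windows of a gene that was also found in another annotated gene split the mitochondrial set. It was 100% for mt-Co2, 99.9% for mt-Co3, 99.5% for mt-Atp6, 98.8% for mt-Nd4l and 98.0% for mt-Nd3. It was 62.2% for mt-Nd4, 51.1% for mt-Co1, 8.19% for mt-Nd2 and 7.61% for mt-Nd5, and no window of mt-Nd1, mt-Nd6, mt-Cytb or mt-Atp8 was shared with an annotated gene. Only annotated transcripts were searched, so copies without annotation would be missed. The 5 genes that were almost wholly shared had low levels, and their copies were counted at similar levels: Gm28661 had a median of 15.4 CPM over the 15 mice and mt-Co2 had between 9.13 and 25.0 CPM. Values of these 5 genes therefore describe only the reads that were assigned to them, and the treatment of reads with several places is not given in the sources used here. The place of mt-Atp8 on the mitochondrial genome (chromosome M, 7766 to 7969) overlaps that of mt-Atp6 over 21.1% of its bases.

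**Figure D1:**
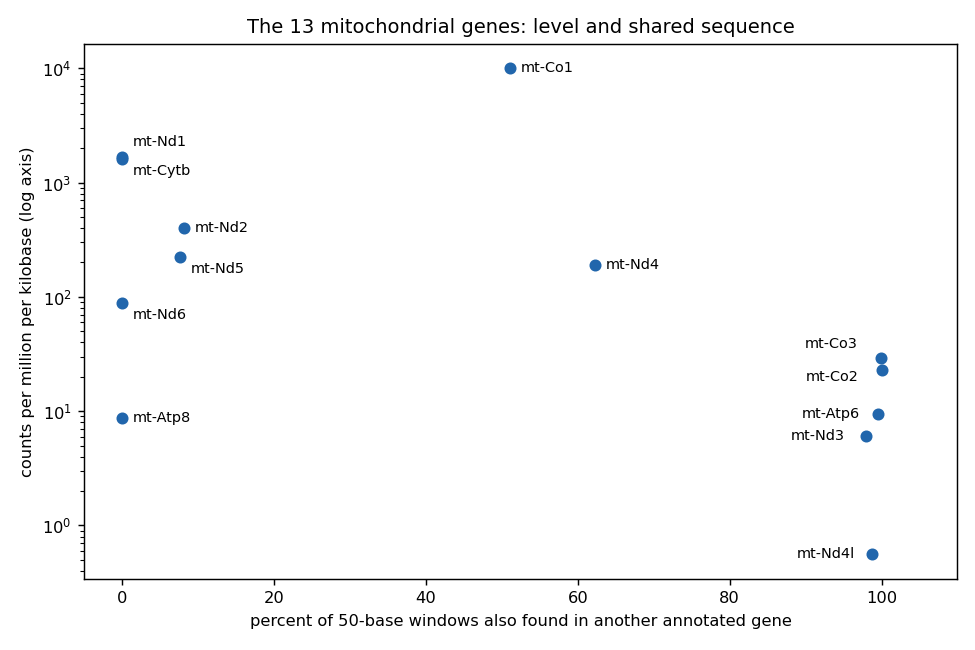
Each point is 1 of the 13 mitochondrial genes. The x axis gives the percent of its 50-base windows that also occur in another annotated gene, and the y axis (log scale) its level as CPM per kilobase of exon, averaged over 15 mice. The 5 genes at 98.0% or more lie between 0.557 and 29.0 CPM per kilobase, and the 4 genes with no shared window lie at 1667 (mt-Nd1), 1602 (mt-Cytb), 88.3 (mt-Nd6) and 8.67 (mt-Atp8). Copies without annotation are not counted.

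Among the mitochondrial genes, mt-Co1, the catalytic subunit of cytochrome c oxidase, had by far the highest level in assigned reads. Per kilobase of exon and averaged over the 15 mice, its level was 10012 CPM, followed by mt-Nd1 (1667) and mt-Cytb (1602), the complex III subunit that binds ubiquinone. The complex I core subunits mt-Nd2 (399), mt-Nd5 (225), mt-Nd4 (189) and mt-Nd6 (88.3) came next. The ATP synthase subunits mt-Atp6, part of the proton channel, and mt-Atp8, a small membrane subunit, had 9.39 and 8.67, and the remaining genes were mt-Co3 (29.0), mt-Co2 (22.9), mt-Nd3 (6.03) and mt-Nd4l (0.557). The places of the 5 wholly copied genes in this order hold only for the reads assigned to them, and their transcript levels relative to mt-Co1 are not known. Within the nuclear set the most abundant member per kilobase was Ndufa4 for complex I (150 CPM per kilobase), Sdhd, a membrane anchor, for complex II (158), Uqcr11 for complex III (219), Cox6b1 for complex IV (233) and Atp5a1, the alpha subunit of the catalytic head, for complex V (323). Exon length covers all annotated transcripts of a gene, and this order depends on it. It was 3135 bases for Atp5a1 and 4237 for Atp5b, whose longest transcripts have 2674 and 1916 bases. Before division by length Atp5b had the highest CPM of complex V. Ndufa4 was first named as a complex I subunit and is now placed with cytochrome c oxidase, but it was counted here with complex I by its symbol.

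The liver isoforms of cytochrome c oxidase were expressed and the heart, muscle, lung and testis isoforms were close to absent. Cox4i1 had 182 CPM per kilobase against 0.0954 for Cox4i2, the lung isoform. Cox6a1 had 199 against 0.0674 for the muscle isoform Cox6a2, and Cox6b1 had 233 against 0.0779 for the testis isoform Cox6b2. Cox8a had 185, whereas Cox8b had 6 counts over 5 of the 15 mice, and Cox8c and Cox7b2 had none, which allows at most 3 counts over all mice for each (counting error only). Cox7a1, the heart and muscle form, was an exception at 1.90 against 127 for the ubiquitous Cox7a2 and 53.6 for Cox7a2l, the form involved in supercomplexes. Ndufa4l2, a gene induced by low oxygen in other cells, had 0.931 against 150 for Ndufa4. The 3 genes that encode the same mature ring subunit of ATP synthase were all expressed, Atp5g3 at 89.1, Atp5g1 at 27.6 and Atp5g2 at 24.3. Before division by exon length (2181, 4912 and 1675 bases) their medians were 191, 134 and 41.4 CPM. The closeness of Atp5g1 and Atp5g2 thus depends on the length used. The summed level of 8 muscle and adipocyte markers was at most 0.491 CPM in any liver.

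**Figure D2:**
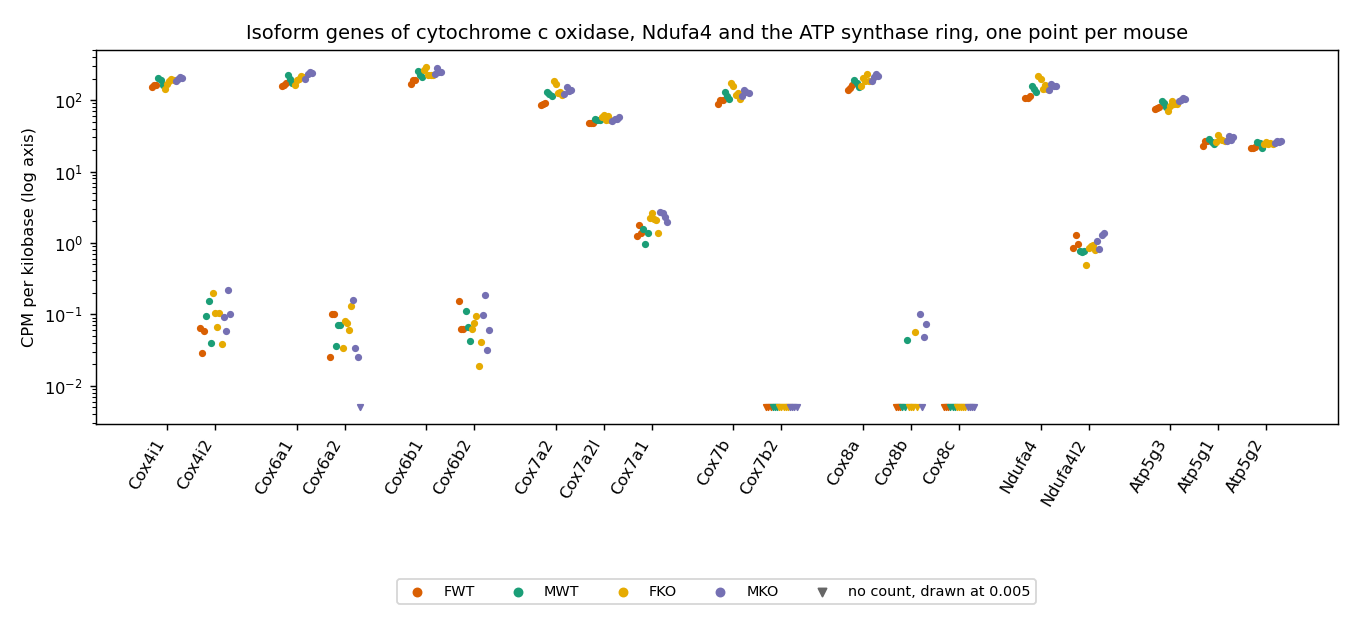
Levels of the isoform genes of cytochrome c oxidase, Ndufa4 and the ATP synthase ring, as CPM per kilobase (log axis) with 1 point per mouse, coloured by group. Triangles at 0.005 mark mice with no count. Cox4i1, Cox6a1, Cox6b1, Cox7b and Cox8a lie far above their partner isoforms in every mouse, and Cox7a2 far above Cox7a1 but close to Cox7a2l.

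Libraries of the FKO group differed from one another more than those of the other groups, which bears on every result of that group. In FKO1 and FKO2 the counts leaned towards genes with a low GC content: the slope of log2 CPM on GC was -0.415 per 10 points of GC in FKO1 and -0.231 in FKO2, and between -0.0265 and 0.0871 in the other 13 livers. The slope also did not overlap between FWT (0.0568 to 0.0670) and MWT livers (-0.0265 to 0.0105). The 16S ribosomal RNA of mitochondria, mt-Rnr2, took 7.29% of the counts in FKO1, 4.37% in FKO2 and 0.431% in FKO4, against 2.58% to 3.54% in the others. In FKO4 mt-Co1 made up 88.0% of the mitochondrial set (75.2% to 78.1% elsewhere) and mt-Cytb 3.35% (8.42% to 10.8% elsewhere). Total counts ranged from 27799061 to 78624766 per library. For comparisons with the FKO group, the counts of calls and medians of both sets and of the gene lists are also given without FKO1 and FKO2, and without FKO1, FKO2 and FKO4. The part of these library properties in the results was tested only by those fits and by offsets for GC content and exon length.

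In every liver mt-Co1 made up between 75.2% and 88.0% of the counts of the mitochondrial set. The share and the ratio of this set therefore mostly describe mt-Co1. The share of all counts that fell on the mitochondrial set was 1.53%, 1.68% and 1.62% in the FWT livers and 2.22%, 1.92% and 1.995% in the MWT livers, so that each FWT liver lay below each MWT liver. It took 1.97%, 2.07%, 2.05% and 1.95% in the MKO livers, within the range of MWT. The FKO livers spanned the whole range, with 3.22%, 2.63%, 1.77%, 1.52% and 1.90%, and the 2 highest were FKO1 and FKO2. The 90 nuclear genes took 0.944% ± 0.0378 (SD, n = 3) in FWT, 1.03% ± 0.0539 (SD, n = 3) in MWT, 1.09% ± 0.0559 (SD, n = 5) in FKO and 1.11% ± 0.0385 (SD, n = 4) in MKO livers. The lowest nuclear share in the other 3 groups, 0.974% in MWT3, was above the highest in FWT, 0.969%.

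The ratio of the 2 sets does not depend on library size, and its mitochondrial side is mostly mt-Co1. As log2 of mitochondrial over nuclear counts it was 0.76, 0.80 and 0.74 in FWT livers and 1.04, 0.87 and 1.03 in MWT livers, with no overlap. It was 0.90, 0.86, 0.85 and 0.82 in MKO livers, which all lay above FWT, and 3 of the 4 lay below every MWT liver (MKO1 exceeded MWT2). It was 1.62, 1.22, 0.70, 0.39 and 0.89 in FKO livers, so that FKO1 and FKO2 were the highest and FKO4 and FKO3 the lowest of the 15. The mean difference was -0.21 for FWT minus MWT, -0.13 for MKO minus MWT and 0.20 for FKO minus FWT, where the SD within FKO was 0.48. The last value was -0.11 without FKO1 and FKO2 and 0.03 when FKO4 was left out as well, and it was -0.07 when the mitochondrial genes with a nuclear copy were left out. No test was made of this score.

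**Figure D3:**
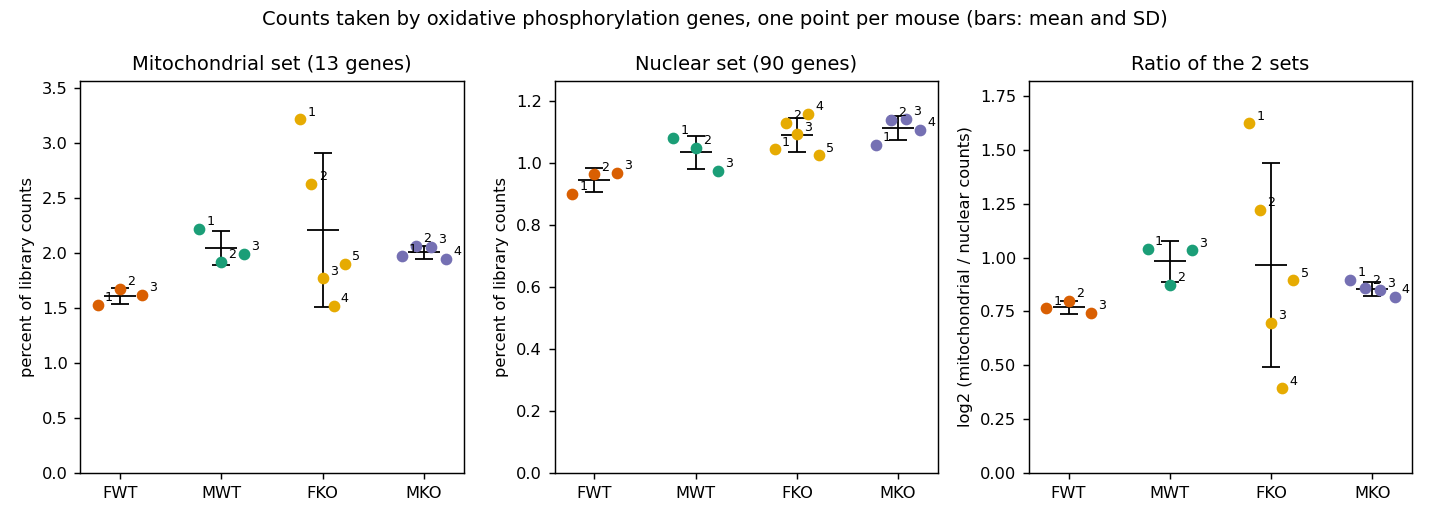
Percent of library counts taken by the mitochondrial set and by the nuclear set, and the log2 ratio of the 2, with 1 point per mouse (numbered), and bars at the mean and 1 SD. FWT livers are low in all 3 panels, and FKO livers spread from 1.52% to 3.22% in the first.

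The comparison of wild type females with wild type males asks whether OXPHOS transcripts differ between the sexes. Estimates were lower in females for 76 of the 82 nuclear genes, with a median log2 fold change of -0.19, and for 12 of the 13 mitochondrial genes, with a median of -0.41, whereas the median over all 17655 genes tested was 0.01. One nuclear gene passed the test and was lower in females: Ndufb3, an accessory subunit of complex I, with 27.4, 29.2 and 30.6 CPM in FWT and 46.8, 38.4 and 35.2 CPM in MWT livers. The groups did not overlap and the log2 fold change was -0.46 ± 0.129 (SE, adjusted p = 0.0474). Over all genes tested, 2.2% were called lower and 2.67% higher in females, so 1 of 82 is no larger a share than the background. In edgeR's test no mitochondrial gene was called, 1 mitochondrial and 17 nuclear genes had an unadjusted p under 0.05, all lower in females, where 7.56% of all genes tested were lower at that limit. DESeq2 called 3 nuclear genes lower and no mitochondrial gene, and 3.38% of all genes lower. The call of Ndufb3 was lost (adjusted p of 0.05 or more) without FWT1, FWT2, FWT3, MWT1, MWT2, FKO3, FKO4, MKO2, MKO3 or MKO4, and 2 nuclear genes were called without FKO1.

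The separation of the groups was wider than these calls. Every FWT liver was below every MWT liver for 42 of the 82 nuclear genes (51.2%) and for 11 of the 13 mitochondrial genes, where 15.3% of all genes tested showed this. The mitochondrial exceptions were mt-Nd6, with 38.96, 57.5 and 47.4 CPM in FWT and 37.5, 48.8 and 42.6 in MWT livers, and mt-Nd4l, which had between 0.0687 and 0.244 CPM in these livers. For mt-Co1 the values were 11273, 12476 and 12034 CPM in FWT and 17701, 14718 and 14759 in MWT livers, with a log2 fold change of -0.40 ± 0.218 (SE, adjusted p = 0.376). For mt-Nd5, a complex I core subunit, they were 315, 276 and 298 CPM against 494, 406 and 486, a log2 fold change of -0.64 ± 0.308 (SE, adjusted p = 0.301). Both genes were lower in all FWT livers, and the SE of the model, which shares 1 estimate of spread over the 4 groups, was wide beside these gaps. The same fit was also made without FKO1 and FKO2, libraries that are in neither group. It called 15 nuclear and 4 mitochondrial genes lower in females (mt-Co1, mt-Co3, mt-Nd3 and mt-Nd5), and without FKO4 as well 18 and 8. In these 2 fits, which were chosen after seeing the data, 4.5% and 4.89% of all genes tested were called lower. With only the FWT and MWT livers fitted, 7 nuclear and 4 mitochondrial genes were called. There 3.8% of all genes tested were called higher and 3.75% lower. Why the number of calls moved between fits was not tested.

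Loss of *Esr1* in females went with higher levels of nuclear subunits. Of the 82 nuclear genes tested, 15 were higher in FKO than in FWT livers and none was lower, and 77 had an estimate above 0. The median log2 fold change was 0.31, against 0.00 over all genes tested, of which 3.14% were called higher and 2.57% lower. Of the nuclear members, 53 had an unadjusted p under 0.05, all higher, where 11.8% of all genes were higher at that limit. DESeq2 called 32 higher and none lower, and 5.37% of the genes it tested higher. By complex, 5 of 40 genes of complex I, none of 4 of complex II and 3 of 8 of complex III were called. So were 4 of 13 of complex IV and 3 of 17 of complex V. Complexes were assigned by gene symbol, which counts Ndufa4 with complex I. The genes called were Ndufa4, Ndufa13, Ndufb2, Ndufb9 and Ndufs4, then Uqcr10, Uqcr11 and Uqcrq, then Cox6b1, Cox6c, Cox7a2 and Cox7c, and Atp5l, Atp5md and Atp5mpl. None of the 15 encodes a subunit with a catalytic centre.

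The smallest adjusted p was in complex III. Uqcr11, its smallest subunit, had 97.7, 107 and 113 CPM in FWT and 161, 174, 141, 150 and 135 CPM in FKO livers, with no overlap and a log2 fold change of 0.52 ± 0.101 (SE, adjusted p = 0.00579). Uqcr10, another small subunit near the cytochrome c1 site, had 59.4, 62.6 and 65.1 CPM in FWT and 92.7, 108.4, 84.8, 92.9 and 76.8 CPM in FKO livers, again without overlap (log2 fold change 0.55 ± 0.108, SE, adjusted p = 0.00647). Uqcrq, the ubiquinone-binding partner subunit, went from 93.6, 98.2 and 102 CPM to 127, 139, 125, 146 and 118 CPM (0.42 ± 0.0969, SE, adjusted p = 0.0192). In all 3 genes FKO5 was the lowest FKO liver and still exceeded each FWT liver. Uqcrc1, one of the large core proteins, had 195, 216 and 218 CPM in FWT and 137, 163, 235, 262 and 234 CPM in FKO livers, so that FKO1 and FKO2 lay below all FWT livers and the other 3 above (log2 fold change -0.02, adjusted p = 0.954).

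In complex IV, Cox7a2, the ubiquitous form of subunit VIIa, had the largest change of the nuclear set. It had 80.03, 83.7 and 85.6 CPM in FWT and 175, 159, 119, 123.96 and 110 CPM in FKO livers, without overlap, and a log2 fold change of 0.73 ± 0.141 (SE, adjusted p = 0.00582). Ndufa4 had 148, 148 and 157 CPM in FWT and 302, 277, 196, 224 and 198 CPM in FKO livers (0.66 ± 0.140, SE, adjusted p = 0.0108). In both genes FKO1 and FKO2 were the highest livers and the other 3 FKO livers also exceeded every FWT liver. The tissue isoform Cox7a1 had 0.671, 0.968 and 0.733 CPM in FWT and 1.20, 1.41, 1.17, 1.12 and 0.739 CPM in FKO livers and did not pass the test (adjusted p = 0.207). Cox4i1, which is among the first nuclear subunits to join the complex, had 235, 251 and 251 CPM in FWT and 225, 261, 283, 305 and 300 CPM in FKO livers (adjusted p = 0.424).

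In complex V, Atp5l, the g subunit of the membrane part, had 45.0, 49.4 and 49.2 CPM in FWT and 83.0, 78.1, 59.8, 63.0 and 54.9 CPM in FKO livers (log2 fold change 0.50 ± 0.124, SE, adjusted p = 0.0268), with no overlap. Atp5a1, the alpha subunit, had 898, 980 and 1006 CPM in FWT and 706, 895, 1141, 1235 and 923 CPM in FKO livers, which overlapped widely (log2 fold change 0.03, adjusted p = 0.934). Complex II, which holds the dehydrogenase of the citric acid cycle and pumps no protons, had no call. Its flavoprotein Sdha had 441, 466 and 468 CPM in FWT and 358, 437, 564, 388 and 523 CPM in FKO livers (log2 fold change -0.01, adjusted p = 0.967), and its membrane anchor Sdhd had 171, 168 and 173 CPM against 202, 242, 191, 199 and 173 CPM (0.24, adjusted p = 0.189).

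The called nuclear genes depended on which libraries entered. Every FKO liver was above every FWT liver for 42 of the 82 genes (51.2%), where 8.03% of all genes tested showed this. Without FKO1 and FKO2 the median of the nuclear set was 0.21 and 7 genes were called (Uqcr11, Uqcr10, Uqcrq, Ndufa4, Cox7a2, Cox8a and Atp5l), where 2.53% of all genes were called higher. When FKO4 was left out as well the median was 0.17 and 2 were called, Uqcr11 (log2 fold change 0.38, adjusted p = 0.0422) and Cox7a2 (0.45, adjusted p = 0.0256), where 1.2% of all genes were called higher. With offsets for GC content and exon length fitted on other protein-coding genes, the median was 0.19 and 11 genes were called, against 3.11% of all genes. Among single libraries, the count was 2 without FWT1, 3 without FWT2, 4 without FWT3, 5 without FKO2, 9 without MWT2, MKO3 or MKO4, 23 without FKO3 and 33 without FKO5. The share of all genes called higher also moved, from 1.19% without FWT1 to 4.79% without FKO5 over the fits that left out 1 mouse. Only Cox7a2 was called in each of these fits. The FKO minus FWT and FWT minus MWT comparisons share the 3 FWT livers, so that low values there enter both.

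Genes with a short exon length moved with the groups beyond this gene set. Exon length covers all annotated transcripts of a gene, so that called genes such as Atp5l (6443 bases) and Ndufb2 (5628 bases) fell in the longest class. The exons of nuclear members had a median length of 1578 bases, against 4584 for the other protein-coding genes tested. Among genes with exons under 700 bases, the median log2 fold change of FKO minus FWT was 0.45 over 11 members and 0.27 over 62 other genes. It was 0.38 and 0.23 from 700 to under 1000 bases, 0.28 and 0.09 from 1000 to under 2000 bases, and 0.18 and -0.03 at 2000 bases or more, so that members lay above other genes in each class and both declined with length. In FWT minus MWT the medians of members and other genes were -0.25 and -0.09 under 700 bases and -0.29 and -0.12 from 700 to under 1000 bases. They were -0.17 and -0.04 from 1000 to under 2000 bases, and -0.18 and 0.01 at 2000 bases or more. The 85 cytosolic ribosomal protein genes tested, which are also short and abundant, had 41 called higher, none called lower and a median of 0.39, and 30 and 11 called higher with medians of 0.27 and 0.26 in the 2 fits with FKO libraries aside. Their median in FWT minus MWT was -0.21, with 84 of 85 estimates below 0. The part of exon length in the nuclear OXPHOS values was not tested further than by the offsets, and that of the length of the expressed transcripts was not tested. A list of nuclear non-coding and depleted RNA, of which 9 genes were tested, had a median of 0.69 in FKO minus FWT and 0.03 in MKO minus MWT. In FKO minus FWT 7 estimates were above 0, 6 had an unadjusted p under 0.05 and 1 was called higher, Rn7s6, a gene of the signal recognition particle RNA (0.74, adjusted p = 0.0493), whereas the near copies Rn7s1 and Rn7s2 had 0.69 and 0.70 without a call. The summed level of the list was 17788 to 21349 CPM in FWT and 18300 to 29873 CPM in FKO livers, the median was 0.38 and 0.21 with none called with FKO libraries aside, and its part in the OXPHOS values was not tested.

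The mitochondrial genes had positive estimates in all 13 cases in FKO minus FWT, with a median of 0.51, and 1 of the 13 was called. mt-Co3, a core subunit of cytochrome c oxidase, had 13.2, 15.4 and 17.9 CPM in FWT and 40.6, 32.8, 20.9, 16.3 and 23.1 CPM in FKO livers (log2 fold change 0.79 ± 0.224, SE, adjusted p = 0.0497). FKO4 lay within the range of FWT and the other 4 FKO livers above it. The gene is almost wholly shared with Gm28437, and that copy was called higher as well (0.80), as were the mt-Co1 copies Gm29216 (0.71) and Gm13340 (0.72); of the 10 nuclear copies 3 were called, with a median of 0.64. With FKO libraries aside none of the 10 was called, and the medians were 0.25 and 0.35. For mt-Co1 itself the FKO values were 24527, 20372, 13590, 12921 and 14527 CPM against 11273, 12476 and 12034 CPM in FWT, without overlap (0.53 ± 0.198, SE, adjusted p = 0.126). The call of mt-Co3 was lost without any one of FWT1, FWT2, FWT3, MWT1, MWT2, MWT3, FKO1, FKO2, MKO1, MKO2, MKO3 or MKO4, and 2 genes were called without FKO4 or without FKO5.

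The rest of the mitochondrial set followed the libraries that stood apart. mt-Cytb had 1244, 1700 and 1721 CPM in FWT and 3166, 2469, 1493, 492 and 1736 CPM in FKO livers (log2 fold change 0.27 ± 0.361, SE, adjusted p = 0.6999). mt-Nd1 had 1316, 1240 and 1266 CPM in FWT and 2462, 2013, 1412, 759 and 1544 CPM in FKO livers (0.36 ± 0.247, SE, adjusted p = 0.406). In each of these genes FKO1 and FKO2 were the highest and FKO4 the lowest of the 15 livers. FKO1 and FKO2 were also the highest and FKO4 the lowest of the FKO livers in mt-Nd2, with 671, 497, 306, 116 and 388 CPM, in mt-Nd4, with 464, 333, 184, 105 and 245 CPM, and in mt-Nd5, with 789, 489, 340, 220 and 325 CPM. mt-Co2 (25.0, 22.99, 13.2, 9.13 and 16.05 CPM), mt-Atp6 (12.1, 9.87, 5.29, 2.996 and 5.19 CPM) and mt-Atp8 (3.96, 2.51, 1.38, 0.578 and 1.61 CPM) showed this as well. For mt-Nd3 the FKO livers had 4.36, 3.11, 1.93, 1.88 and 1.57 CPM, each above the FWT values of 1.41, 1.43 and 1.24 (0.91 ± 0.284, SE, adjusted p = 0.0717). mt-Nd4l had at most 0.455 CPM in any liver and was not tested when FKO libraries were left aside, which leaves 12 genes. Without FKO1 and FKO2 the median of the set was -0.06 and no gene was called, and without FKO4 as well it was 0.15 with none called. Over the same 2 fits the median of the nuclear set stayed above 0, at 0.21 and 0.17.

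**Figure D4:**
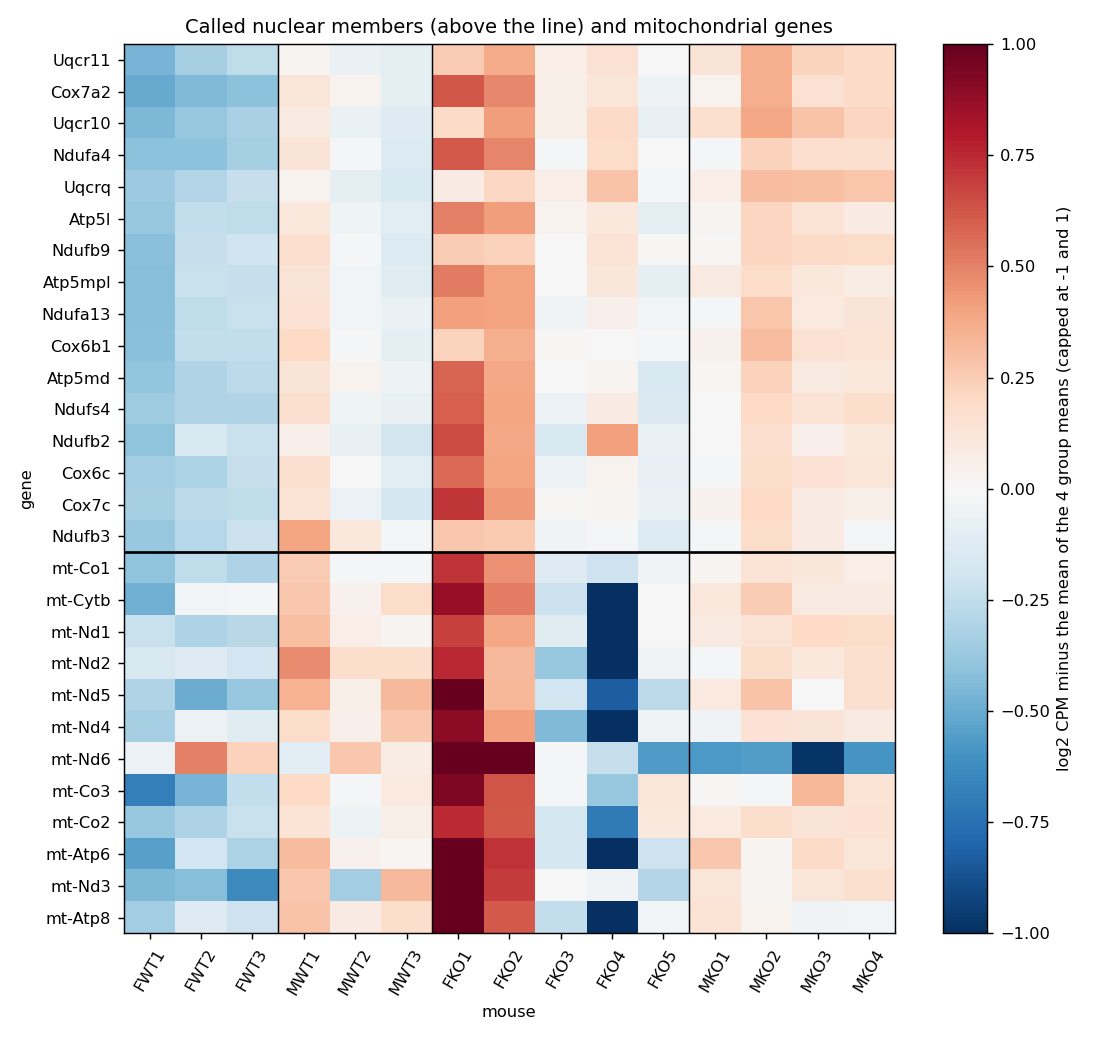
Log2 CPM of the 16 called nuclear genes (above the line) and of 12 mitochondrial genes (below it), minus the mean of the 4 group means, with 1 column per mouse and colours capped at -1 and 1. FWT columns are low for the nuclear genes, FKO1 and FKO2 are high in both parts, FKO4 is low for most mitochondrial genes alone, and mt-Nd6 is low in all 4 MKO livers.

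In males, ESR1KO and wild type livers differed little. No member was called by edgeR in MKO minus MWT, where 0.833% of all genes tested were called higher and 0.583% lower; 8 nuclear genes, all higher in MKO, and no mitochondrial gene had an unadjusted p under 0.05, against 7.18% of all genes that were higher at that limit, and DESeq2 called none. Estimates were above 0 for 78 of the 82 nuclear genes, with a median of 0.12, and for 5 of the 13 mitochondrial genes, with a median of -0.03. Cox7a1, the heart and muscle isoform, had the smallest p of the nuclear set: 1.45, 1.42, 1.22 and 1.05 CPM in MKO and 0.839, 0.513 and 0.745 CPM in MWT livers, with no overlap (log2 fold change 0.85 ± 0.241, SE, adjusted p = 0.104). Uqcrq had 126, 149, 148 and 146 CPM in MKO and 123, 113 and 107.99 CPM in MWT livers, with no overlap (log2 fold change 0.31 ± 0.101, SE, adjusted p = 0.167). Uqcr11 had 147, 173, 158 and 154 CPM in MKO and 137, 129 and 126 CPM in MWT livers, also with no overlap (0.27 ± 0.105, SE, adjusted p = 0.281). Every MKO liver was above every MWT liver for 13 of the 82 nuclear genes, and 8.56% of all genes tested showed this.

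The gene mt-Nd6 had the lowest estimate of the mitochondrial set in MKO minus MWT. It encodes a membrane subunit of complex I and is the only protein gene on the other strand of the mitochondrial genome (chromosome M, 13552 to 14070), where its end overlaps mt-Nd5 by 14 bases. It had 27.2, 27.4, 20.5 and 26.9 CPM in MKO livers and 37.5, 48.8 and 42.6 CPM in MWT livers, with no overlap. It was the single mitochondrial gene with every MKO liver below every MWT liver. That is 7.69% of the set, near the 7.35% of all genes tested that showed this. The log2 fold change was -0.75 ± 0.382 (SE, adjusted p = 0.470). In FKO livers it had 127, 83.8, 40.0, 34.6 and 27.4 CPM, from FKO1 to FKO5, so that FKO5 was at the level of the MKO livers and FKO1 and FKO2 above every other liver. In the fits without FKO1 and FKO2 mt-Nd6 was called lower in MKO than in MWT (-0.75, adjusted p = 0.0201), and without FKO4 as well (-0.76, adjusted p = 0.0262). These fits were chosen after seeing the data. The counting of strand is not given in the sources used here, so reads from the opposite strand of this region cannot be told apart from reads of mt-Nd6.

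ESR1KO females and males were compared directly, and no member was called by edgeR in FKO minus MKO, where 0.159% of all genes tested were called higher and 0.113% lower. At an unadjusted p under 0.05, 11 nuclear genes were lower in FKO and mt-Nd6 was higher (log2 fold change 1.29 ± 0.348, SE, adjusted p = 0.111), where 8.02% of all genes were lower and 9.49% higher at that limit. DESeq2 called 1 nuclear gene lower and no mitochondrial gene, and 1.43% of the genes it tested lower. Every FKO liver was below every MKO liver for 5 of the 82 nuclear genes, where 2.66% of all genes tested showed this. The median of the nuclear set was -0.04, against -0.19 in wild type mice, and that of the mitochondrial set was 0.08, against -0.41. With FKO1 and FKO2 aside these medians in FKO minus MKO were -0.11 and -0.47, with FKO4 aside as well -0.15 and -0.22, and no member was called in either fit. mt-Nd6 was called higher in FKO than in MKO livers without FKO5 (1.48, adjusted p = 0.0473) and with the GC and length offsets (0.80, adjusted p = 0.0490). Whether the effect of the genotype differed between the sexes was tested by the interaction, (FKO minus FWT) minus (MKO minus MWT), in which neither tool called a member; 1.02% of all genes tested were called above and 0.923% below 0 by edgeR. The medians were 0.16 for the nuclear and 0.56 for the mitochondrial set, with 5 nuclear genes and 3 mitochondrial genes above 0 and 2 nuclear genes below 0 at an unadjusted p under 0.05, against 6.92% of all genes above and 7.35% below 0. In the 2 fits with FKO libraries aside the medians were 0.09 and 0.06 for the nuclear and -0.03 and 0.21 for the mitochondrial set, with no member called. The difference was 0.56 ± 0.199 (SE, adjusted p = 0.215) for Cox7a2, 0.48 ± 0.166 (SE, adjusted p = 0.20005) for Ndufb3 and 0.76 ± 0.316 (SE, adjusted p = 0.290) for mt-Co3. A difference in the genotype effect between the sexes was thus not shown for any single member.

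**Figure D5:**
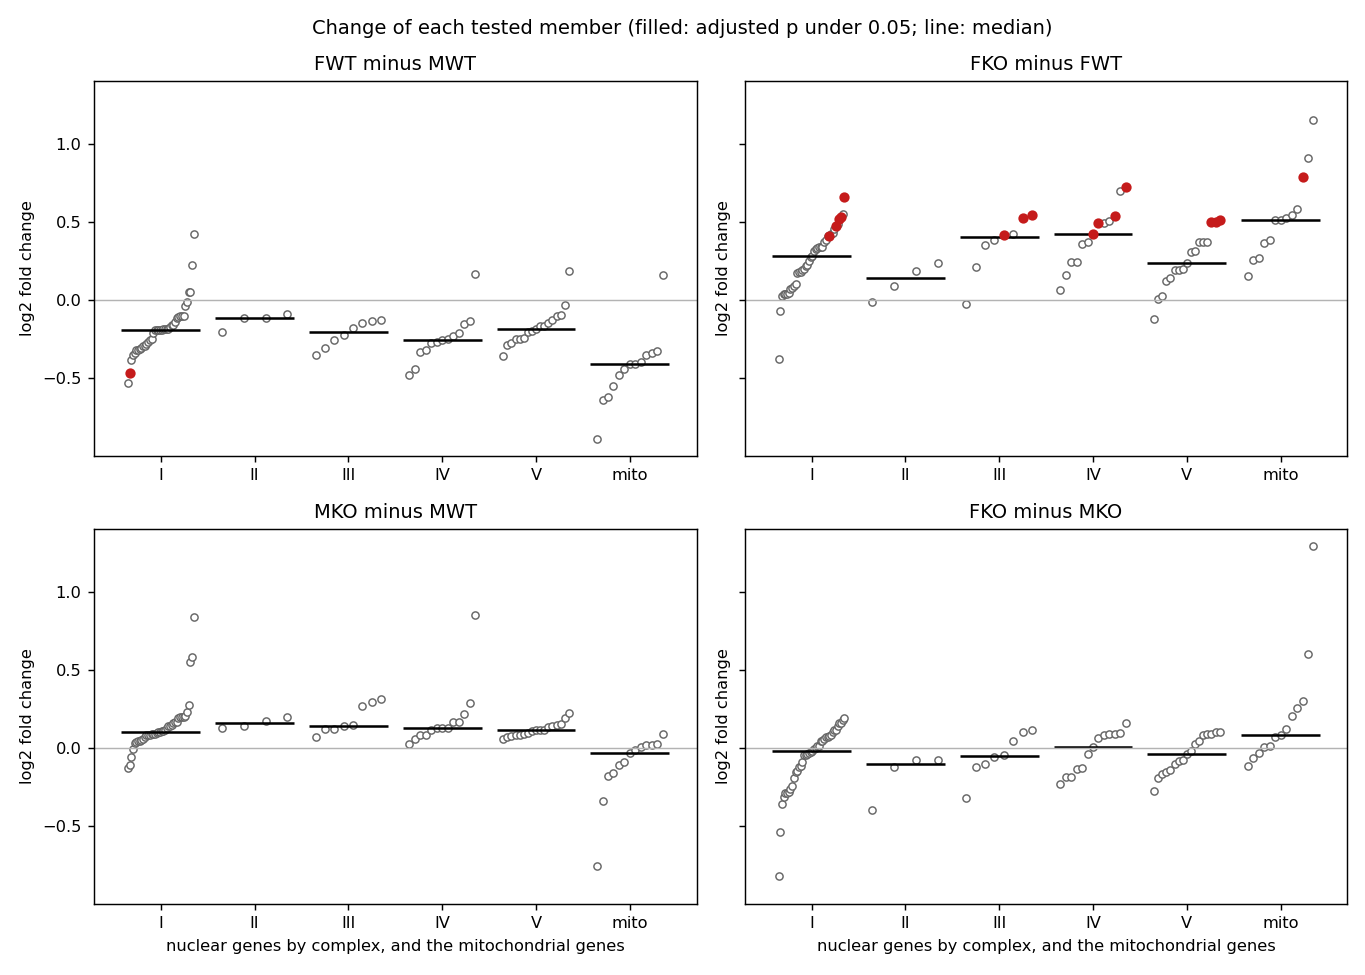
Log2 fold change of each tested member in 4 comparisons, for the nuclear genes by complex and for the mitochondrial genes, with filled points at an adjusted p under 0.05 and lines at the medians. In FKO minus FWT the medians are above 0 in each column and 16 points are filled, and in FWT minus MWT the medians are below 0 and 1 point is filled.

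The wider pathway was examined by lists of genes around the complexes, to be read against the 3.14% of all genes called higher in FKO minus FWT. In FKO minus FWT, 2 of 21 genes for electron carriers and ADP exchange were called higher. Coq7, a hydroxylase of ubiquinone synthesis, had 10.2, 11.7 and 11.2 CPM in FWT and 16.5, 19.6, 19.6, 19.6 and 16.5 CPM in FKO livers (log2 fold change 0.73, adjusted p = 2.50e-04), and it was also called lower in FWT than in MWT livers, which had 20.9, 18.6 and 16.9 CPM (-0.77, adjusted p = 2.49e-04). Cycs, cytochrome c itself, had 41.3, 43.7 and 48.9 CPM in FWT and 82.7, 85.7, 60.9, 56.2 and 53.2 CPM in FKO livers (0.60, adjusted p = 0.0363). Neither gene overlapped between FWT and FKO, and FKO1 and FKO2 did not stand apart for Coq7. Of 47 assembly factors tested 1 was called, Cox19, a copper-handling factor for cytochrome c oxidase (0.60, adjusted p = 0.00132), with a list median of 0.13. Of 29 genes for mitochondrial gene expression 1 was called, Hsd17b10, a subunit of mitochondrial RNase P (0.39, adjusted p = 0.0482), with a list median of 0.07. Of 78 mitochondrial ribosomal proteins 3 were called, Mrpl52, Mrps24 and Mrps28, with a median of 0.12. None of 18 genes of the citric acid cycle was called by edgeR (median 0.02). At an unadjusted p under 0.05, 3 were higher and 1 was lower, against 2092 higher and 1882 lower of the 17655 genes tested. In the 2 fits with FKO libraries aside, Coq7 (0.75 and 0.70) and Cox19 (0.63 and 0.61) were still called higher and the other genes of these lists were not. The list medians were then 0.09 and 0.09 for electron carriers and ADP exchange, 0.05 and 0.01 for assembly factors, 0.04 and -0.02 for mitochondrial gene expression, 0.12 and 0.10 for mitochondrial ribosomal proteins and 0.08 and 0.09 for the citric acid cycle.

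Regulators of mitochondrial biogenesis were described in the same way, and 1 of 17 was called, higher in FWT minus MWT (2.67% of all genes) and lower in FKO minus FWT (2.57%). *Esrrg*, the estrogen-related receptor gamma, had 3.85, 2.12 and 3.46 CPM in FWT and 0.889, 0.880 and 1.33 CPM in MWT livers, so that it was higher in each female (log2 fold change 1.59, adjusted p = 5.90e-04). It was lower in FKO livers, which had 1.59, 1.87, 1.43, 1.88 and 1.98 CPM (-0.84, adjusted p = 0.0266), and its interaction was called at -1.76 (adjusted p = 0.00482). With FKO libraries aside FKO minus FWT was -0.83 and -0.88 and not called (adjusted p = 0.0743 and 0.157), and the interaction was still called at -1.74 and -1.78. MKO livers had 1.84, 1.49, 2.11 and 2.41 CPM. *Ppargc1a*, a coactivator of mitochondrial genes, *Esrra*, *Nrf1*, *Gabpa* and *Tfam*, which packages and transcribes mitochondrial DNA, were not called in any comparison. Tfam had means of 42.6, 42.3, 46.2 and 41.9 CPM in FWT, MWT, FKO and MKO livers.

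Markers of cell types moved with some of these comparisons. Over all genes tested, 3.14% were called higher and 2.57% lower in FKO minus FWT, and 2.67% and 2.2% in FWT minus MWT. The shares were 0.833% and 0.583% in MKO minus MWT and 0.159% and 0.113% in FKO minus MKO. All 9 pericentral hepatocyte markers had negative estimates in FKO minus FWT (median -0.49), and Lgr5 (-0.80) and Cyp1a2 (-0.89) were called lower. With FKO libraries aside neither was called, and the medians were -0.26 and -0.25. The summed level of the pericentral markers was 8352 to 10550 CPM in FWT and 4432 to 9187 CPM in FKO livers. A fall was not particular to the pericentral list. Of 9 periportal hepatocyte markers 6 had negative estimates in FKO minus FWT (median -0.35), 1 was called higher and none was called lower. With FKO libraries aside the periportal medians were -0.33 and -0.38. Alas2, the heme synthesis enzyme of red cell precursors, was called lower in FWT than in MWT livers (-2.97) and higher in FKO than in FWT livers (2.56, and 2.63 and 2.68 with FKO libraries aside, still called), but the summed level of 5 red blood cell markers overlapped between all groups, from 76.8 to 546 CPM in FWT, 341 to 688 CPM in MWT, 349 to 478 CPM in FKO and 349 to 756 CPM in MKO livers. Of 9 Kupffer cell markers none was called in FKO minus FWT, and their summed level was 488 to 600 CPM in FWT and 452 to 601 CPM in FKO livers. In FKO minus MKO all 9 had estimates above 0, with a median of 0.43 and 1 called higher, against 381 to 490 CPM in MKO livers, and the median was 0.45 and 0.50 with FKO libraries aside. Of 5 cholangiocyte markers, Spp1 was called higher in FKO minus FWT (0.60), though not with FKO libraries aside, and Krt19 (1.23) and Epcam (0.95) were called higher in MKO minus MWT. In FWT minus MWT Sox9 was called lower (-1.03) and Epcam higher (1.083). Their summed level was 32.4 to 32.9 CPM in FWT, 34.0 to 55.5 in MWT, 43.6 to 51.4 in FKO and 41.3 to 59.3 in MKO livers, so that every FWT liver lay below all others. The summed level of 11 hepatocyte markers was 120052 to 126562 CPM in FWT, 105205 to 105718 in MWT, 102162 to 127436 in FKO and 107235 to 119402 in MKO livers. Of these, 1 was called higher and 1 lower in FWT minus MWT. No endothelial, stellate or lymphocyte marker was called in any comparison. Each of the markers of these lists had counts, and their part in the OXPHOS values was not tested.

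Promoters of the nuclear members were examined for sequences known from this gene family, since 15 members were called together. RefSeq promoters (GRCm38.p6, 250 bases before to 50 bases after the start) were matched for 69 of the 90 nuclear genes, which gave 68 promoters. The shares that follow count either strand. The core of the site of nuclear respiratory factor 1 (GCGCATGCG) was in 8 of the 68, 11.8%, against 1.81% of 27025 promoters and 3.41% of the 11465 promoters of tested genes. The GABP or ETS site CCGGAAG was in 16, 23.5%, against 9.12% and 17.0%, and the YY1 site AAGATGG was in 9, 13.2%, against 6.48% and 6.92%. The estrogen-related receptor half-site TCAAGGTCA was in 2, 2.94%, against 0.407% and 0.27%, the CCAAT box in 44.1% against 37.9% and 38.7%, the GC box GGGCGG in 41.2% against 35.9% and 60.9%, and TATAAA in 11.8% against 14.2% and 7.86%. The full palindromic estrogen response element was in none, against 0.0666% and 0%. Of the 11 called genes with a promoter, 2 held the nuclear respiratory factor 1 core, 4 the GABP site and 6 the CCAAT box. These matches are descriptions of letters and were not tested.

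Promoters of 4 genes are shown: in each complex with a call, the called gene with a promoter that had the smallest p in FKO minus FWT. They range from several matches to none. All 4 genes are on the minus strand and read 5′ to 3′, with matches in capitals. Uqcr11 (chr10:80406772-80407071) holds the GABP site and the nuclear respiratory factor 1 core, Cox7a2 (chr9:79759804-79760103) a GC box, Atp5l (chr9:44920693-44920992) a CCAAT box, the nuclear respiratory factor 1 core, 2 GABP sites and TATAAA on the other strand, and Ndufa4 (chr6:11907401-11907700) none of them:
Uqcr11: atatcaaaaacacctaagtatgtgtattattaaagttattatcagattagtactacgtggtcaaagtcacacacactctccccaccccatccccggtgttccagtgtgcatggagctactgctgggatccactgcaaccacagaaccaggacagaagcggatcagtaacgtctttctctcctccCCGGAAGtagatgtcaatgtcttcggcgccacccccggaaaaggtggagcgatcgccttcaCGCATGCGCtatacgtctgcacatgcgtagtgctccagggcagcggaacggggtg
Cox7a2: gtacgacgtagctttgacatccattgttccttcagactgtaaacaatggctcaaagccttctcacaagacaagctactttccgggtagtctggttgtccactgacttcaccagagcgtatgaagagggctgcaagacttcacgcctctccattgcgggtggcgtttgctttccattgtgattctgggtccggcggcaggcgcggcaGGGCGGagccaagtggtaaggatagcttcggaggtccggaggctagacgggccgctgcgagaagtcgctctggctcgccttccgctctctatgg
Atp5l: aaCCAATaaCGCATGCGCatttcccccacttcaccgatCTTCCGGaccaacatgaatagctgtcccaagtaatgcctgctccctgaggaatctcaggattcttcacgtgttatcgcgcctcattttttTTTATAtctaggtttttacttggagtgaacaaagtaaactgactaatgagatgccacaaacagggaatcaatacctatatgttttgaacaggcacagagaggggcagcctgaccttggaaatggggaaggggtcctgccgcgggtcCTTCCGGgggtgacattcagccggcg
Ndufa4: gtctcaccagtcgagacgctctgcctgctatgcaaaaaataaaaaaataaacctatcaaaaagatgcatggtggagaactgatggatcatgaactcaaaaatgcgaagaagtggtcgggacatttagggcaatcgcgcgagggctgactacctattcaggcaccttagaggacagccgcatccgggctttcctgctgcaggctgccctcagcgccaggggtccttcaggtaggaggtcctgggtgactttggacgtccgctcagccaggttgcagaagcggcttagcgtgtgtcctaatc

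Some nuclear members share exons or sequence with other genes. Among the called genes, exons of Ndufa13 were overlapped over 30% by Tssk6 on the opposite strand and those of Ndufb9 over 19.5% by Gm49356, and 23.4% of the windows of Ndufb9 and 27.9% of those of Cox7c occurred in other annotated genes. Values of these 3 genes hold with that limit. Cox6c2, a near copy of Cox6c with 52.7% of its windows in that gene, had between 0.567 and 1.43 CPM.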

How the data were processed

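RNA-seq libraries came from the livers of 15 mice. The deposited values are counts per gene without normalization, and per the labels the authors trimmed reads with Trimmomatic 0.36, used STAR for alignment to GRCm38, and obtained gene counts with HTSeq (0.6.0 in the submitters' processing notes). Strand setting, annotation release and the treatment of multiply placed reads are not given in the sources used here. Groups came from the labels. Counts were fitted in R 4.3.3 with edgeR 4.0.16 (filterByExpr, TMM, quasi-likelihood F test, 1 mean per group, all 15 mice), with Benjamini-Hochberg adjustment across 17655 genes; an adjusted p under 0.05 was a call. DESeq2 1.42.0 was an alternative. CPM use TMM factors. Shares are of all counts. Scripts were tested on simulated data. Replicates are separate mice, and no pair of libraries agreed within sampling noise (chi-square per gene of 24.7 or more). Members, lists and tests were chosen with earlier results of these data known. All mitochondrial members were named with values, and of the nuclear ones the 6 with the smallest adjusted p per comparison and direction, the most abundant per complex and isoform pairs; Uqcrc1, Sdha, the uncalled regulators and the genes of the marker and depleted RNA lists were named after their values were seen. Alternatives were other scalings, filters, DESeq2, the replicate block, fewer groups, a log2 fold change of at least 1.5, single mice left out, FKO libraries left aside, and GC and length offsets.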

Additional observations from a re-analysis of the deposited data

Results flagged for a closer look

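Within groups of 4 or 5 mice, 64 sets of values were examined for a mouse far from the rest, and 4 were found, all in the MKO group. The gap to the nearest mouse was there a large part of the whole range, and chance gives such a gap in about 1 of 20 groups. For mt-Nd6, MKO3 had 20.5 CPM and the other 3 livers 26.9 to 27.4 CPM. For mt-Cytb, MKO2 had 2070 CPM, and the nearest liver 1868 CPM. For Ndufb9, MKO1 had 138 CPM beside 155 CPM in the nearest liver, and for Uqcrq, MKO1 had 126 CPM beside 146 CPM. MKO1 is the library with the fewest counts, 27799061.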

How the results depend on the processing

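Alternatives that left FKO libraries aside, or added offsets for GC content and length, were chosen after seeing the data. In FWT minus MWT, the 1 nuclear call became 0 with total counts, 0 with the replicate block, 0 with a log2 fold change of at least 1.5, 3 with DESeq2, 7 with only the groups compared, 2 with the offsets, 15 without FKO1 and FKO2, 18 without FKO4 as well and 0 to 2 without single mice. The 0 mitochondrial calls became 4 with only the groups compared, 4 without FKO1 and FKO2 and 8 without FKO4 as well. In FKO minus FWT, the 15 nuclear calls became 32 with DESeq2, 3 with only the groups compared, 0 at the fold limit, 7 and 2 with FKO libraries aside and 2 to 33 without single mice. The 1 mitochondrial call became 3 with DESeq2, 2 with no filter, 2 with the replicate block, 0 with only the groups compared, 0 at the fold limit, 0 and 0 with FKO libraries aside, 0 with the offsets and 0 to 2 without single mice. In FKO minus MKO, DESeq2 called 1 nuclear gene, and 1 mitochondrial gene was called with no filter, with the offsets and, as a range of 0 to 1, without single mice. In MKO minus MWT, 1 nuclear gene (Uqcrq) was called without FKO1, FKO2 and FKO4, and 1 mitochondrial gene with only the groups compared and in both fits with FKO libraries aside. The fold limit exceeds every estimate; the cause of the other shifts was not tested.

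Of single genes, 23 values changed sign, all mitochondrial in FKO minus FWT. Without FKO replicate 1 they were -0.12 (mt-Nd2), -0.0429 (mt-Nd4), -0.0484 (mt-Nd6) and -0.00690 (mt-Cytb), and over all single mice left out these genes reached 0.39, 0.46, 0.57 and 0.51. Without FKO1 and FKO2 they were -0.0422 (mt-Nd1), -0.40 (mt-Nd2), -0.22 (mt-Atp8), -0.0696 (mt-Atp6), -0.33 (mt-Nd4), -0.0105 (mt-Nd5), -0.50 (mt-Nd6) and -0.33 (mt-Cytb), and without FKO4 as well -0.0432 (mt-Nd2), -0.0646 (mt-Nd4) and -0.52 (mt-Nd6). With the offsets they were -0.12 (mt-Nd1), -0.37 (mt-Nd2), -0.0269 (mt-Co2), -0.26 (mt-Atp8), -0.0549 (mt-Atp6), -0.23 (mt-Nd4), -0.42 (mt-Nd6) and -0.19 (mt-Cytb).

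The log2 ratio of MKO minus MWT was -0.22 as a mean of log2 CPM over members. With mitochondrial ribosomal RNA and the 10 most abundant genes left out of the total, the mitochondrial share was 2.001% in FWT, 2.47% in MWT and 2.48% in MKO, and the nuclear share 1.17%, 1.25%, 1.35% and 1.37% in FWT, MWT, FKO and MKO, by construction.

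Replicate numbers did not pair the mice: same-numbered mice correlated between -0.218 and 0.167 in their deviations, and 1 of 12 mice correlated best with its own number. With the replicate block 22 nuclear genes were called in FKO minus FWT and 0 in FWT minus MWT. Counts limit the values of mt-Nd4l, which had 118 counts over all mice.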
